A study of Mus musculus with 6 samples.

Results

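Neurofilaments and peripherin are the intermediate filaments of neurons, and 5 genes encode them: Nefl, Nefm and Nefh (the light, medium and heavy neurofilament subunits), Prph (peripherin) and Ina (alpha-internexin). They were taken as the rows of the deposited expression table whose gene symbol is one of these names. All 5 were found among the table's 23029 genes, and all 5 passed the filter on low values that kept 12386 genes for testing. Their levels are described in cells sorted from the dorsal root ganglia (DRG) of mice with the genotype GINIP+/mcherry, which all 6 libraries share, so no wild-type animals were compared. Sorted DP cells carried both IB4 and GINIP and are labelled Mrgprd+ sensory neurons. C-LTMRs, low-threshold mechanoreceptors with unmyelinated C fibres, carried GINIP without IB4. DN cells carried neither and are labelled as the remaining cells or remaining sensory neurons. IB4 is a lectin that binds the surface of many non-peptidergic nociceptors, and GINIP is the protein whose locus carries the mCherry allele. Each subset had 2 libraries, and age, sex and the number of animals per library are not stated in the labels.

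Intermediate filament proteins share a central alpha-helical rod and pair lengthwise into ropes that fill the axon. Nefl is the core on which neurofilaments are built, while Nefm and Nefh add long tails that project from the filament and are phosphorylated in axons. The caliber of large myelinated axons depends on these filaments, and Nefh (NF200) is the usual histological label for large, myelinated DRG neurons, whereas Prph labels the small, unmyelinated ones. Ina co-assembles with the neurofilament subunits and is best known from the central nervous system.

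The 5 genes lie on 4 chromosomes of the mouse build GRCm38 (mm10), with coordinates as the files give them. Nefl (Entrez 18039) spans chr14:68083884-68087737 on the plus strand and Nefm (Entrez 18040) spans chr14:68119545-68125004 on the minus strand, so they are neighbours with 31807 bases between them. Nefh (Entrez 380684) spans chr11:4938756-4948064 on the minus strand. Prph (Entrez 19132) spans chr15:99055174-99058978 and Ina (Entrez 226180) spans chr19:47015190-47024346, both on the plus strand. The coding sequences of the annotated transcripts used differ in length: 1090 codons for Nefh, 848 for Nefm, 543 for Nefl, 507 for Prph and 501 for Ina. For Prph this is the transcript Prph-202, and lengths of other transcripts are not given here. The lysine-serine-proline triplet, the phosphorylated repeat of the neurofilament tails, is encoded 51 times in Nefh and 4 times in Nefm, and was not found in the other 3 coding sequences.

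To mark where rod and tail meet, 30 coding bases at the end of the rod are given for each gene. Likeness over the rest of the rod was not measured, and this short stretch does not stand for it. The 30 bases come from the GENCODE M21 transcripts (GRCm38), are written 5′ to 3′ on the coding strand, and lie in coding exons. Capitals mark the 20 bases that all 5 genes share.
Nefl: gCtTACAGaAAaCTctTgGAaGGcGAaGAG
Nefm: gCgTACAGgAAaCTccTaGAgGGgGAaGAG
Nefh: gCtTACAGaAAgCTccTgGAaGGcGAaGAG
Prph: aCcTACAGgAAgCTacTgGAaGGgGAgGAG
Ina: gCtTACAGgAAgCTccTgGAaGGtGAaGAG
Of these 30 bases, Nefh shared 28 with Nefl, Ina 26, Nefm 24 and Prph 22. The stretch ends at codon 398 of 543 in Nefl, 407 of 848 in Nefm, 408 of 1090 in Nefh, 440 of 507 in Prph (transcript Prph-202, as for the shares below) and 404 of 501 in Ina. What follows it, the tail, makes up 62.6% of the codons of Nefh and 52.0% of those of Nefm, against 26.7% in Nefl, 19.4% in Ina and 13.2% in Prph. Glutamate takes 31.0% of the tail codons of Nefl, 28.8% of those of Nefm, 19.8% of those of Nefh, 15.5% of those of Ina and 9.0% of those of Prph.

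Levels are in RPKM, that is reads per kilobase of gene length per M reads, as the authors deposited them. The estimated depth was 32.3 to 42.0 M reads per library, and the log2 values of the replicate pair had a correlation across tested genes of 0.9946 for DP, 0.9926 for C-LTMR and 0.9849 for DN. Mrgprd and Th followed the labels: Mrgprd was at 220 and 277 RPKM in DP libraries and at most 2.01 RPKM in the other 4, and Th was at 1017 and 1038 RPKM in C-LTMR libraries and at most 61.7 RPKM in the other 4. Among the listed Mrgprd neuron markers, Ret was lower in DP (70.2 and 67.2 RPKM) than in C-LTMR (100 and 96.8 RPKM). So was Gfra2 (139 and 134 RPKM against 180 and 187 RPKM), while the others on that list were higher in DP than in C-LTMR. Summed markers of satellite glia were highest in DN. The 7 satellite glia markers summed to 734 and 1247 RPKM in DP, 1045 and 2005 in C-LTMR, and 7434 and 17265 in DN. The 20 pan-sensory-neuron genes had a median log2 offset of 0.03 and 0.08 in DP, 0.13 and 0.15 in C-LTMR, -0.03 in DN replicate 1 and -0.42 in DN replicate 2. DN replicate 2 therefore stood apart from the other 5 libraries, and in these bulk samples fewer cells of a type and less RNA per cell cannot be told apart.

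All 5 genes were detected in every library (the plot of levels by library). Prph and Nefl were by far the most abundant of the family in DP, C-LTMR and DN alike, and Nefl, Prph and Ina were ordered DP, C-LTMR, DN by their means. Nefl and Ina were called higher in DP than in DN, and Ina was called higher in C-LTMR than in DN. Nefm and Nefh showed no such order, and Nefh, the subunit that marks large myelinated neurons, had overlapping levels in all 3 subsets. A gene was called where the Benjamini-Hochberg (BH) adjusted p of the limma fit over all tested genes was under 0.05 and the log2 fold change was at least 1 in size. The labels do not say that replicates came from separate animals, so each p-value reflects no more than how far these libraries differ, which could be technical.

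**Figure D1:**
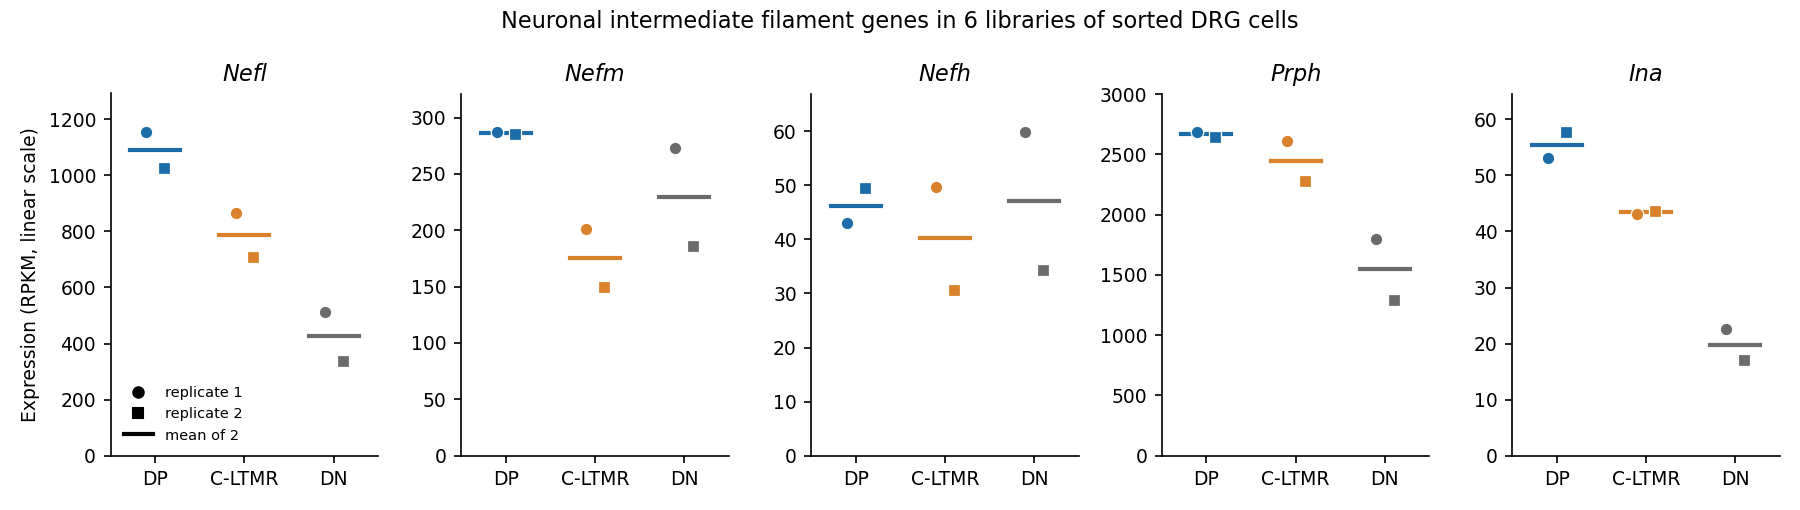
Expression of the 5 genes in RPKM (vertical axes, linear, each from 0) in the DP, C-LTMR and DN libraries, with a circle for replicate 1, a square for replicate 2 and a line at the mean of both. Nefl, Prph and Ina separate DN from the other subsets, with DN at 339 to 513 RPKM for Nefl, while the Nefh points of the 3 subsets overlap between 30.7 and 59.8 RPKM.

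Prph, the filament of small unmyelinated neurons, was the most abundant member. It measured 2684 and 2648 RPKM in DP, 2613 and 2282 RPKM in C-LTMR, and 1802 and 1292 RPKM in DN. These values placed Prph at rank 6 to rank 12 of all genes in the first 5 of these libraries and at rank 26 in DN replicate 2. All DP and C-LTMR libraries lay above both DN libraries, and both DP libraries lay just above C-LTMR replicate 1 and further above C-LTMR replicate 2. Prph averaged 2666 ± 25.7 RPKM in DP, 2447 ± 234 RPKM in C-LTMR and 1547 ± 360 RPKM in DN (SD, n = 2 each). It was 1.75 times as high in DP as in DN (log2 fold change 0.80, SE 0.172, limma adjusted p = 0.00614) and 1.60 times as high in C-LTMR as in DN (0.68, limma adjusted p = 0.0133). Both differences passed the adjusted p but not the fold criterion, so neither was called. Between DP and C-LTMR the log2 fold change was 0.13 (limma adjusted p = 0.623), and quantile normalization turned its sign (-0.22, limma adjusted p = 0.563). The adjusted p of DP over DN did not hold after quantile normalization (log2 fold change 0.47, limma adjusted p = 0.129) and without the filter on low values (0.165). That of C-LTMR over DN was lost after rescaling to the pan-sensory-neuron genes (0.31, limma adjusted p = 0.102), without the filter (0.231) and without C-LTMR replicate 1 (0.0649).

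Nefl, the core neurofilament subunit, followed the same order with wider steps. Its level was 1153 and 1026 RPKM in DP, 867 and 707 RPKM in C-LTMR, and 513 and 339 RPKM in DN. The 3 subsets did not overlap, with every DP library above every C-LTMR library and every C-LTMR library above both DN libraries. Nefl ranked 33 and 38 among all genes in DP, 48 and 66 in C-LTMR, and 112 and 202 in DN. The means were 1090 ± 90.2 RPKM in DP, 787 ± 113 RPKM in C-LTMR and 426 ± 123 RPKM in DN (SD, n = 2 each). Nefl was called higher in DP than in DN, by 2.61-fold (log2 fold change 1.38, SE 0.207, limma adjusted p = 0.00123). It was 1.88 times as high in C-LTMR as in DN (0.91, SE 0.207, limma adjusted p = 0.00846), which passed the adjusted p but not the fold criterion. Without DN replicate 1 or without C-LTMR replicate 2 that difference was called (log2 fold changes 1.21 and 1.06), and without the filter on low values its limma adjusted p was 0.0778. The log2 fold change of DP over C-LTMR was 0.47 (limma adjusted p = 0.131) and did not pass the test. After rescaling to the pan-sensory-neuron genes it was 0.56 and passed the adjusted p (limma adjusted p = 0.0493), as it did at 0.47 when the fit held just the 4 DP and C-LTMR libraries (0.0355) and without DN replicate 1 or 2 (0.0365 and 0.0362).

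Ina, the gene of alpha-internexin, was the member with the smallest adjusted p in both comparisons with DN. It measured 53.1 and 57.7 RPKM in DP, 43.2 and 43.7 RPKM in C-LTMR, and 22.5 and 17.1 RPKM in DN. The 3 subsets again did not overlap, and the gap between C-LTMR and DN was wider than the gap within any subset. Ina averaged 55.4 ± 3.25 RPKM in DP, 43.5 ± 0.40 RPKM in C-LTMR and 19.8 ± 3.83 RPKM in DN (SD, n = 2 each). It was called higher in DP than in DN, by 2.81-fold (log2 fold change 1.49, SE 0.137, limma adjusted p = 0.000137), and higher in C-LTMR than in DN, by 2.21-fold (1.14, limma adjusted p = 0.000466). The call in C-LTMR over DN failed the fold criterion after rescaling to the pan-sensory-neuron genes (log2 fold change 0.78) and without DN replicate 2 (0.94), with adjusted p still under the threshold. Between DP and C-LTMR the log2 fold change was 0.35 (limma adjusted p = 0.101), and it passed the adjusted p, but not the fold criterion, after rescaling to the pan-sensory-neuron genes (0.43, limma adjusted p = 0.0349) and in the second deposited table (0.40, limma adjusted p = 0.0437). The same held at 0.35 when the fit held just the 4 DP and C-LTMR libraries (limma adjusted p = 0.0123) and without DN replicate 1 or 2 (0.0139 and 0.0136).

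Nefm, the medium subunit, had a different order. It measured 287 and 286 RPKM in DP, 201 and 149 RPKM in C-LTMR, and 273 and 186 RPKM in DN. DP was above both other subsets, whereas C-LTMR and DN overlapped. Means were 286 ± 0.969 RPKM in DP, 175 ± 36.4 RPKM in C-LTMR and 229 ± 61.7 RPKM in DN (SD, n = 2 each). Nefm was 1.65 times as high in DP as in C-LTMR (log2 fold change 0.72, SE 0.207, limma adjusted p = 0.0380), passing the adjusted p but not the fold criterion. In the fit of all 6 libraries as deposited, it was the only one of the 5 genes to pass the adjusted p in that comparison. The limma adjusted p was 0.0628 after quantile normalization, 0.193 without the filter, 0.181 without C-LTMR replicate 2, and 0.15 and 0.138 without DP replicate 1 or 2. The log2 fold changes over DN were 0.35 for DP (limma adjusted p = 0.187) and -0.38 for C-LTMR (limma adjusted p = 0.158). Both turned on single DN libraries. DP over DN was 0.62 without DN replicate 1 (limma adjusted p = 0.0295) and 0.07 without DN replicate 2, and C-LTMR over DN was -0.10 without DN replicate 1 and -0.65 without DN replicate 2 (limma adjusted p = 0.0297). C-LTMR over DN was -0.74 after rescaling to the pan-sensory-neuron genes and then passed the adjusted p (limma adjusted p = 0.00753), but not the fold criterion.

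Nefh, the heavy subunit, was with Ina among the least abundant members and did not separate the subsets. It measured 43.0 and 49.4 RPKM in DP, 49.7 and 30.7 RPKM in C-LTMR, and 59.8 and 34.3 RPKM in DN. The highest and the second lowest library were both from DN, and the ranges of the 3 subsets overlapped. The means were 46.2 ± 4.58 RPKM in DP, 40.2 ± 13.5 RPKM in C-LTMR and 47.0 ± 18.0 RPKM in DN (SD, n = 2 each). Its log2 fold changes were 0.24 in DP over C-LTMR, 0.03 in DP over DN and -0.21 in C-LTMR over DN, with limma adjusted p of 0.602, 0.949 and 0.577 and an SE of 0.306 in each. These SEs leave room for differences in either direction, and the sign changed without single libraries.

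The data of single libraries carry a limit that touches all 5 genes. In DN, replicate 2 was below replicate 1 for every member, and in C-LTMR the same held for all but Ina. The sum of the 5 genes was 4220 and 4066 RPKM in DP, 3774 and 3213 RPKM in C-LTMR, and 2670 and 1868 RPKM in DN. DN replicate 2 also had the lowest pan-sensory-neuron offset and the highest satellite glia sum of the 6 libraries, and the part of these in the differences from DN was not tested. For Nefl and Ina in DP over DN the difference was larger without DN replicate 1 and smaller without DN replicate 2, and it was called in both settings, with log2 fold changes of 1.68 and 1.08 for Nefl and of 1.69 and 1.29 for Ina.

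Set against all genes, the members called by limma were 0 of 5 in DP over C-LTMR, 2 of 5 (Nefl and Ina, both higher) in DP over DN, and 1 of 5 (Ina, higher) in C-LTMR over DN. Of all 12386 genes tested, 6.39% were called higher and 8.37% lower in DP over C-LTMR. In DP over DN, 7.77% were called higher and 23.0% lower, and in C-LTMR over DN 8.53% were called higher and 20.8% lower. The median log2 fold change of the 5 members was 0.35 in DP over C-LTMR, 0.80 in DP over DN and 0.68 in C-LTMR over DN, beside medians over all tested genes of -0.05, -0.14 and -0.05. In DP over C-LTMR the unadjusted limma p was under 0.05 for 2 members (Nefm and Ina), and limma with robust eBayes and the second deposited table also called 0 there. Without DN replicate 2 the counts were 2 of 5 in DP over DN and 0 of 5 in C-LTMR over DN, and without DN replicate 1 they were 3 and 2. The comparisons with DN share its 2 libraries. Quantile normalization split the calls more evenly, with 1924 higher and 2170 lower in DP over DN against 962 and 2846 as deposited, and 1898 and 2064 in C-LTMR over DN against 1057 and 2580. After rescaling to the pan-sensory-neuron genes there were 700 higher and 3460 lower in DP over DN, and 702 and 3265 in C-LTMR over DN.

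Those scalings also moved the median of all genes. In DP over DN it was -0.14 as deposited, 0.14 after quantile normalization and -0.43 after rescaling, and in C-LTMR over DN it was -0.05, 0.15 and -0.41. Relative to these medians, the log2 fold change of Nefl in DP over DN was 1.53 as deposited and 1.29 after quantile normalization. That of Ina was 1.63 and 1.45 in the same settings. Relative to the median, Nefh in DP over DN was 0.17 as deposited and -0.06 after quantile normalization. Rescaling shifts all genes of a library by the same amount, so it cannot change a value relative to the median. The 20 pan-sensory-neuron genes it rests on differed between the subsets themselves. As deposited, the limma adjusted p was under 0.05 for 5 of them in DP over C-LTMR, 14 in DP over DN and 13 in C-LTMR over DN.

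**Figure D2:**
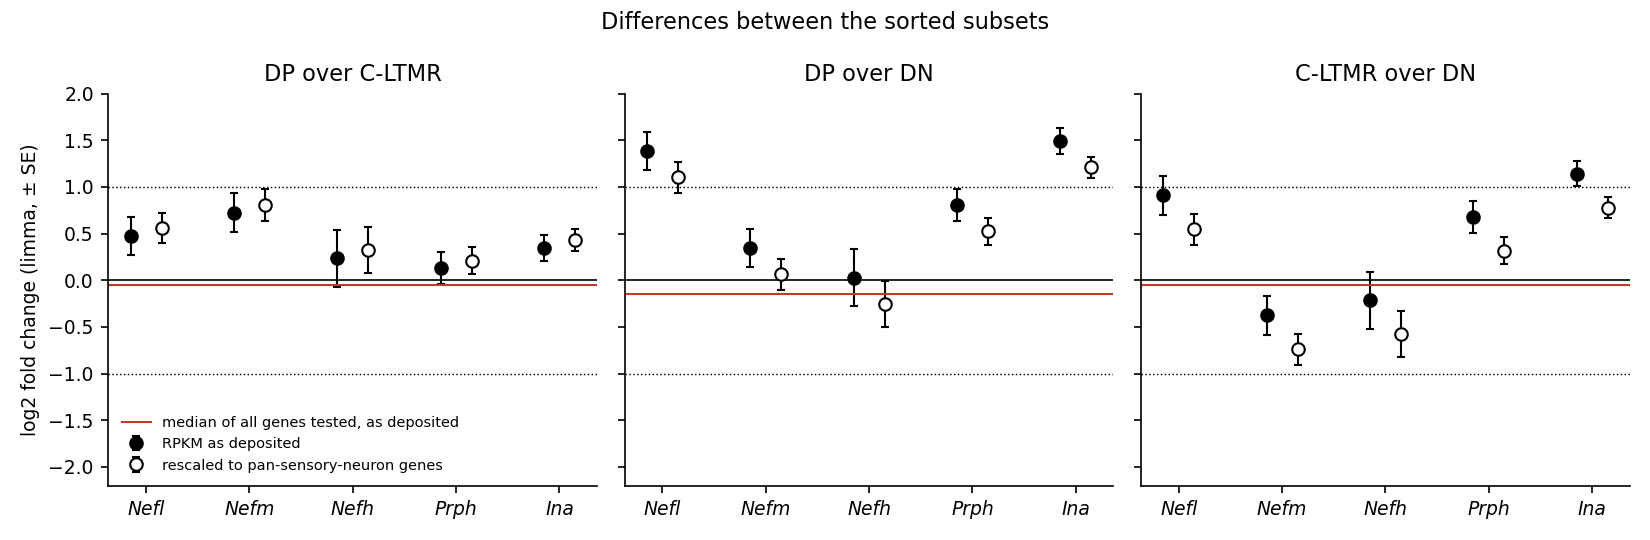
Log2 fold changes of the 5 genes (vertical axis, limma estimate ± SE) in the 3 comparisons, from RPKM as deposited (filled) and after rescaling to pan-sensory-neuron genes (open). The dotted lines mark the fold criterion and the red line the median of all genes tested; Nefl (1.38) and Ina (1.49) pass 1 in DP over DN, and Nefm and Nefh lie below 0 in C-LTMR over DN.

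Within a library, the ratio of one member to another does not depend on how the library was scaled. Nefm stood at 24.9% and 27.8% of Nefl in DP, 23.2% and 21.1% in C-LTMR, and 53.2% and 54.8% in DN. The 2 DN libraries were close to each other in this ratio although their levels of either gene differed, and both were far above the other 4 libraries. The log2 differences of the ratio were -1.04 in DP over DN and -1.29 in C-LTMR over DN, with pooled SDs of 0.0839 and 0.0702. Nefh relative to Nefl was also highest in DN, at 3.72% and 4.82% of Nefl in DP, 5.74% and 4.34% in C-LTMR, and 11.7% and 10.1% in DN. The log2 differences of that ratio were -1.36 in DP over DN and -1.12 in C-LTMR over DN, with pooled SDs of 0.211 and 0.224. Both ratios have Nefl as denominator, so a difference in Nefl alone moves both. In DP over DN the log2 fold changes were 1.38 for Nefl, 0.35 for Nefm and 0.03 for Nefh. In C-LTMR over DN they were 0.91, -0.38 and -0.21. With 2 libraries against 2, an exact permutation test (two-sided) cannot give a p below 0.333, and all of these ratios gave that value.

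The other ratios differed less. Prph was 2.33 and 2.58 times Nefl in DP, 3.02 and 3.23 times in C-LTMR, and 3.51 and 3.82 times in DN, with no overlap between subsets. Against the summed Nefl, Nefm and Nefh, the Prph ratio was 1.81 and 1.95 in DP, 2.34 and 2.57 in C-LTMR, and 2.13 and 2.31 in DN. By this ratio the lower C-LTMR library and the higher DN library were close to each other. Ina kept a near-constant ratio to Nefl, at 4.60% and 5.62% in DP, 4.98% and 6.19% in C-LTMR, and 4.40% and 5.06% in DN, with all 3 subsets overlapping. Nefh relative to Nefm was 15.0% and 17.3% in DP, 24.7% and 20.5% in C-LTMR, and 21.9% and 18.5% in DN, and DP lay below the other subsets. In all, 7 ratios were compared in 3 comparisons, and the largest log2 differences were those of Nefm and Nefh to Nefl against DN.

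**Figure D3:**
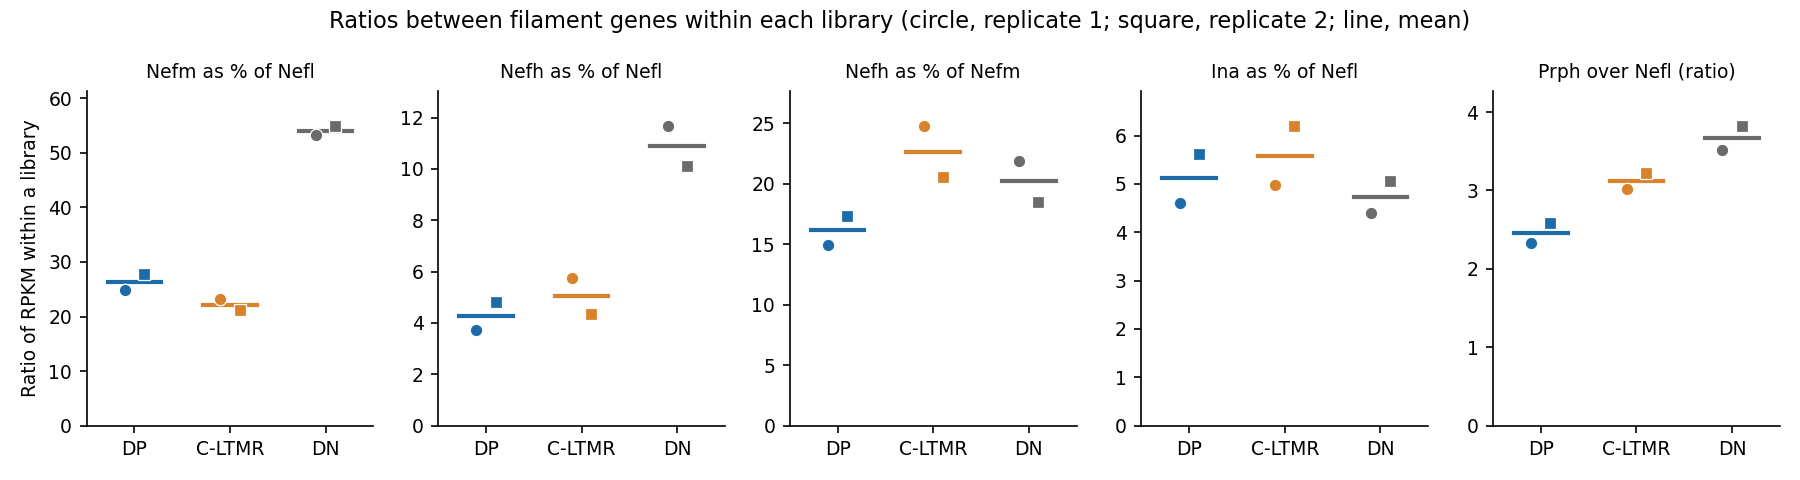
Ratios of RPKM between members within each library (vertical axes, percent or ratio, each from 0), with a circle for replicate 1, a square for replicate 2 and a line at the mean. Nefm and Nefh relative to Nefl are highest in the 2 DN libraries (53.2% and 54.8%, and 11.7% and 10.1%), while Ina relative to Nefl overlaps across the subsets.

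Levels between genes depend on the length that the authors divided by, which was read back from the files by setting RPKM beside the normalized counts. It came to 2001 bases for Nefl, 2153 for Nefm, 3567 for Nefh, 1769 for Prph and 1767 for Ina. The annotated exons inside the files' spans hold 2001 bases for Nefl and 1767 for Ina, but 3072 for Nefm, 3992 for Nefh and 1999 for Prph. Ratios between genes carry this choice. A difference between subsets in the ratio of 1 gene to another does not, but the Prph ratio to the summed neurofilament genes does, since the lengths set the weights in the sum. The files' gene models end 1358 bases before the annotated 3′ end of Nefl and 981 bases before that of Ina. The transcript Nefm-202 covers 1108 bases of the first exon of Nefl on the opposite strand. The use of strand in counting is not given in the sources used here, so reads of the pair cannot be told apart there. In the second deposited table the members ranged from 1142 normalized counts (Ina in DN) to 174657 (Prph), and its fit gave the same calls as the RPKM values.

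The promoters of Prph and Ina are shown because they are the only 2 of the 5 genes matched in the RefSeq promoter table (GRCm38.p6). All DP and C-LTMR libraries lay above both DN libraries for both genes, and for Nefl too, whose promoter is not shown. A link between motifs and levels was not tested. Each line holds the 250 bases before the start, 5′ to 3′ on the plus strand, with found motifs in capitals. The windows are chr15:99054924-99055173 and chr19:47014431-47014680, and motif positions count from the base after each window. For Prph that base is the start in the files, while RefSeq has the gene begin further upstream, at 99053579. For Ina it is the RefSeq start, and the start in the files lies further downstream, at 47015190.
Prph: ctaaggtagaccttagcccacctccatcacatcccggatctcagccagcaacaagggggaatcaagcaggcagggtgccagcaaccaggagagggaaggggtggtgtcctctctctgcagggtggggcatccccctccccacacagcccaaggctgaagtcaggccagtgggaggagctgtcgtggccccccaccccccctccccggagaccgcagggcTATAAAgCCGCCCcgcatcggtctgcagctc
Ina: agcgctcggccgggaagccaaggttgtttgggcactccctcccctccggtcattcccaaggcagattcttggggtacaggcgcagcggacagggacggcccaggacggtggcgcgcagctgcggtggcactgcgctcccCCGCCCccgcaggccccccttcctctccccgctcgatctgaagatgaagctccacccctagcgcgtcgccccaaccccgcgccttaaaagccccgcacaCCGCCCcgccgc
The search covered 3 motifs on both strands, namely the TATA box TATAAA, the GC box GGGCGG and the CCAAT box CCAAT, which do not overlap in these windows. Prph holds TATAAA at -31 and a GC box on the minus strand at -24 relative to the start. Ina holds GC boxes on the minus strand at -111 and -12, and neither TATAAA nor CCAAT is in its window. Of 32851 promoter windows of this length, 12.4% hold TATAAA, 32.7% hold GGGCGG and 33.8% hold CCAAT.

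The genes whose pattern over the 6 libraries was most like each member were found by the root mean square (RMS) difference of centred log2 values. For Nefl they were Rtn2, a reticulon (RMS 0.0768), Trpv2, a cation channel gene (0.0781), and Far2, a fatty acyl-CoA reductase (0.0840). For Prph they were Ube2e2, a ubiquitin-conjugating enzyme (0.0307), Prkcz, an atypical protein kinase C (0.0374), and Hyls1 (0.0429). Ina was most like Kctd17 (0.0527), Nsf, an ATPase of vesicle fusion (0.0602), and Tro (0.0632). The nearest genes to Nefm were Slc11a2, a metal ion transporter (0.108), Slc7a7 (0.115) and Rbm43 (0.132), and to Nefh they were Cacnb1, a calcium channel subunit (0.15), Rmnd1 (0.155) and Angptl6 (0.164). Between members, the smallest difference was that of Ina and Nefl (RMS 0.166), followed by Nefh and Nefm (0.235) and by Nefl and Prph (0.246). Nefl and Nefm, neighbours on chromosome 14, differed by 0.560, and Ina and Nefh by 0.707. Values of Rtn2 were 103 and 101 RPKM in DP, 71.3 and 62.9 RPKM in C-LTMR, and 46.1 and 29.8 RPKM in DN. Rtn2 was picked for its likeness to Nefl in these libraries, so sharing the order of Nefl is no separate result.

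Other intermediate filament genes went the other way against DN. Of 11 listed, 6 passed the filter, and 1 was called higher and 4 lower in both DP over DN and C-LTMR over DN, with medians of -2.16 and -2.39 on the log2 scale. Vim, the filament of mesenchymal and glial cells, was at 195 and 216 RPKM in DP, 159 and 210 RPKM in C-LTMR, and 1037 and 1787 RPKM in DN. DN was far above the other subsets for Vim (log2 fold changes -2.73 and -2.90, limma adjusted p = 0.000152 and 0.000117). Nes, Des and the nuclear lamin gene Lmna were lower in DP and C-LTMR than in DN as well, while Synm, a large filament protein that binds vimentin and desmin, was higher (log2 fold changes 1.06 and 1.42, limma adjusted p = 0.000582 and 0.000156), the first of them not called without DN replicate 2 or after rescaling to the pan-sensory-neuron genes. In DP over C-LTMR the only call was Des, which was at most 0.198 RPKM in both, so no fold is given. The satellite glia sums given above were highest in the same DN libraries, and so were vessel and fibroblast markers (21.0 and 21.7 RPKM in DP, 83.9 and 87.5 RPKM in C-LTMR, 464 and 671 RPKM in DN). The C-LTMR sums of that list are mostly Rgs5, a pericyte gene (79.5 and 82.3 RPKM), and 5 of its other genes were called higher in DP than in C-LTMR. The part of glia and vessel markers in the levels of Vim, Nes and Des was not tested.

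Calls among genes that bind, carry, turn over or phosphorylate neurofilaments were counted without a set test. Of all genes tested, 6.39% were called higher and 8.37% lower in DP over C-LTMR. In DP over DN these shares were 7.77% and 23.0%, and in C-LTMR over DN 8.53% and 20.8%. The same shares stand beside the counts of every other list. All 22 listed genes were tested, and 0 were called higher and 2 lower in DP over C-LTMR, 2 higher and 1 lower in DP over DN, and 3 higher and 0 lower in C-LTMR over DN. The adjusted p alone was passed by 6, 13 and 11 of them in the same comparisons, and without DN replicate 1 the last had 5 higher. Among the kinesin heavy chains that move filaments along axons, Kif5b was higher in DP and in C-LTMR than in DN (2.03 and 1.15, limma adjusted p = 1.26e-05 and 0.000108), but its C-LTMR over DN difference was not called after rescaling to the pan-sensory-neuron genes. Kif5c was at 65.4 and 69.7 RPKM in DP, 219 and 217 RPKM in C-LTMR, and 45.5 and 37.8 RPKM in DN, so C-LTMR stood above both others. It was lower in DP than in C-LTMR (log2 fold change -1.69, limma adjusted p = 8.81e-05) and higher in C-LTMR than in DN (2.39, limma adjusted p = 8.83e-06). Hspb1, a small heat shock protein that acts on filament assembly, was lower in DP than in C-LTMR (-1.82, limma adjusted p = 0.000199) and than in DN (-1.95, limma adjusted p = 5.91e-05).

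Microtubule genes of the axon, 14 in the list, gave 10 tested genes, of which 0 were called higher and 1 lower (Stmn1) in DP over C-LTMR. In DP over DN 1 was higher (Tubb2b, a beta-tubulin, log2 fold change 1.09, limma adjusted p = 0.000473) and 1 lower (Stmn1, a microtubule-destabilizing protein, -1.48, limma adjusted p = 3.31e-05). In C-LTMR over DN limma called 0 of the 10, with the adjusted p passed by 5 and the unadjusted p under 0.05 for 7, while quantile normalization gave 1 call. Without DN replicate 2, or after rescaling to the pan-sensory-neuron genes, Tubb2b was not called in DP over DN, which left 0 higher and 1 lower, and that rescaling left 0 genes called in DP over C-LTMR. Tubb3, a neuronal tubulin, was at 1625 and 1393 RPKM in DP, 1313 and 1054 RPKM in C-LTMR, and 1712 and 1083 RPKM in DN, and overlapped between the subsets.

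Genes of the node of Ranvier, the gap in the myelin sheath where channels cluster, were compared because they share with Nefh the large myelinated axon. Of 12 listed, 10 were tested. In C-LTMR over DN 6 were called higher and 0 lower, with a median log2 fold change of 1.20, and in DP over C-LTMR 0 were called higher and 6 lower, with a median of -1.02. Scn8a, a nodal sodium channel, was at 1.66 and 2.37 RPKM in DP, 6.78 and 8.08 RPKM in C-LTMR, and 1.74 and 1.10 RPKM in DN. Its log2 fold change was -1.85 in DP over C-LTMR (limma adjusted p = 0.00206) and 2.33 in C-LTMR over DN (limma adjusted p = 0.000301). In DP over DN 1 was called higher (Ank3, the nodal ankyrin, log2 fold change 1.51, limma adjusted p = 0.000425) and 3 lower (Nfasc, Cntnap1 and Kcna1). Nfasc, a nodal adhesion molecule, had a log2 fold change of -1.78 in DP over DN (limma adjusted p = 0.00141). These counts moved with the scaling and with single DN libraries. Quantile normalization gave 2 higher and 0 lower in DP over DN, rescaling to the pan-sensory-neuron genes left 4 higher and 1 lower in C-LTMR over DN, and without DN replicate 2 that comparison had 4 higher and 0 lower. Without DN replicate 1, DP over DN had 1 higher and 1 lower. In DP over C-LTMR 3 were lower under quantile normalization.

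Markers of large myelinated neurons were called in both directions against DN. Of 10 listed, 9 were tested, with 0 called higher and 3 lower in DP over C-LTMR, 1 higher and 5 lower in DP over DN, and 3 higher and 5 lower in C-LTMR over DN. Pvalb, the calcium-binding protein of proprioceptors, was at 2.98 and 6.33 RPKM in DP, 7.81 and 1.06 RPKM in C-LTMR, and 17.7 and 4.33 RPKM in DN, and its subsets overlapped. Ntrk3, the receptor of neurotrophin-3, was at 6.85 and 8.36 RPKM in DP, 18.2 and 24.7 RPKM in C-LTMR, and 2.5 and 2.31 RPKM in DN, and was higher in both sorted GINIP+ subsets than in DN (log2 fold changes 1.61 and 3.09, limma adjusted p = 0.000291 and 1.99e-05). Ldhb, Maf, Ntrk2, Calb1 and Spp1 were lower in DP and in C-LTMR than in DN. The summed level of the list was 59.7 and 78.3 RPKM in DP, 162 and 159 RPKM in C-LTMR, and 278 and 318 RPKM in DN. The DN sums are mostly Ldhb, at 201 and 231 RPKM in DN, 65.1 and 58.0 RPKM in C-LTMR, and 37.6 and 46.7 RPKM in DP. The order of C-LTMR and DN in these sums rests on that gene. Schwann cell markers, which come with myelin, summed to 564 and 541 RPKM in DP, 1353 and 1310 RPKM in C-LTMR, and 1502 and 1426 RPKM in DN. The C-LTMR sums are mostly Pmp22 (1203 and 1166 RPKM in C-LTMR, 768 and 680 RPKM in DN), while the other 6 Schwann cell markers were called lower in C-LTMR than in DN.

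Markers of peptidergic neurons, which include many small unmyelinated cells, were mostly highest in DN. Of 6 tested, 1 was called higher (Calcb) and 5 lower in DP over DN, and 0 higher and 5 lower in C-LTMR over DN. Calcb was not called without DN replicate 2 or after rescaling to the pan-sensory-neuron genes. Calca, the precursor of CGRP, was at 588 and 501 RPKM in DP, 1098 and 1008 RPKM in C-LTMR, and 5045 and 4465 RPKM in DN. Tac1, the precursor of substance P, had log2 fold changes of -3.35 in DP over DN and -4.25 in C-LTMR over DN (limma adjusted p = 2.49e-06 and 1.06e-06). In the same DN libraries, where the summed peptidergic markers were 8912 and 8056 RPKM, Prph was lowest. Those markers summed to 1490 and 1333 RPKM in DP and to 1660 and 1585 RPKM in C-LTMR.

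**Figure D4:**
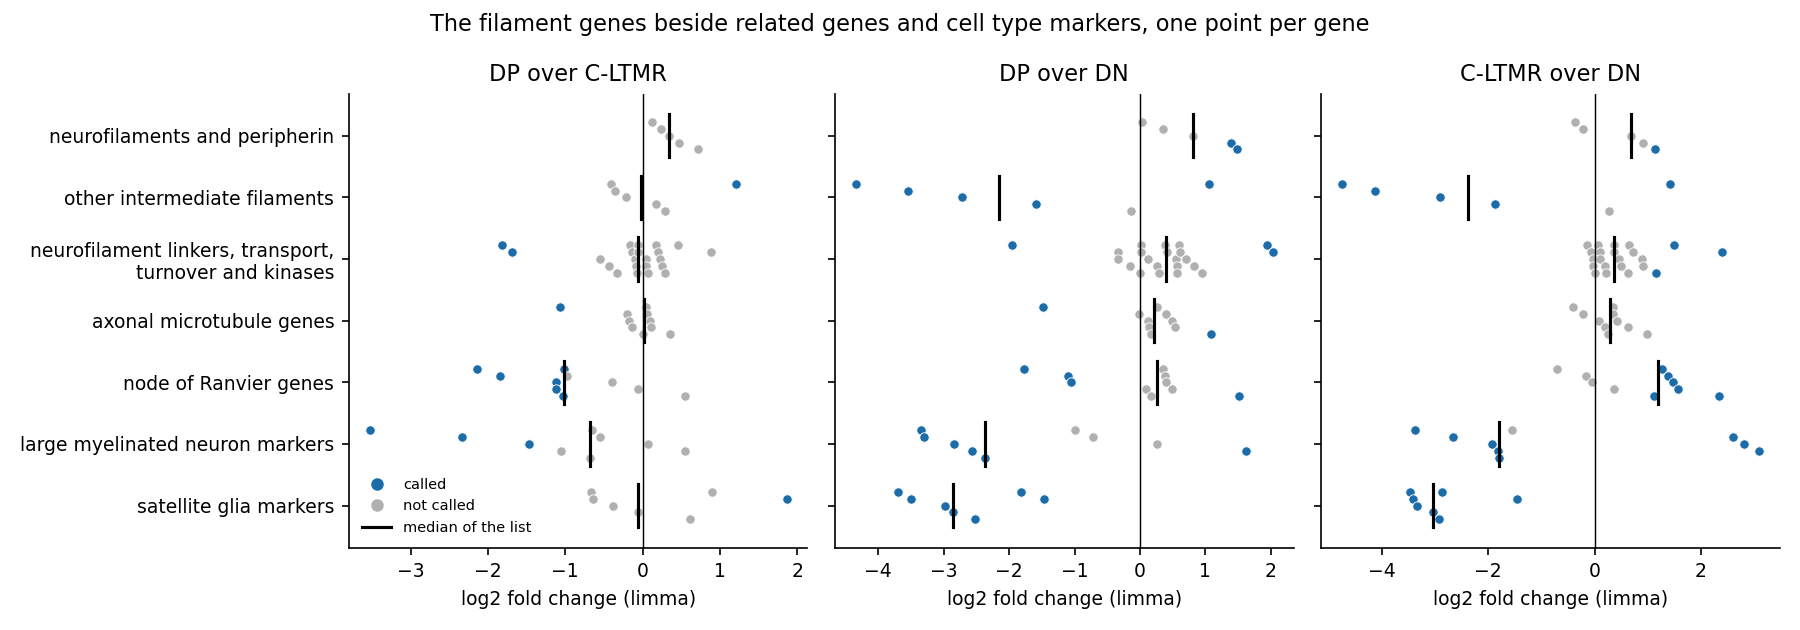
Log2 fold changes (horizontal axes, limma) of single genes in the filament family and in 6 lists of related genes and markers, in the 3 comparisons, with called genes in blue, other tested genes in grey and a line at each list's median. The family's median is 0.80 in DP over DN and 0.68 in C-LTMR over DN, that of other intermediate filaments -2.16 and -2.39, and that of node of Ranvier genes 0.26 and 1.20.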

How the data were processed

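Per the labels' protocols, RNA of cells sorted straight into lysis buffer was amplified from 50 ng with an amino allyl kit and made into TruSeq libraries. The authors deposited RPKM values for 23029 genes, used for all levels and as the main input of the tests, and TMM-normalized counts (a normalized signal, not whole numbers) for 6620 genes, used as an alternative. The submitters' processing notes name CASAVA 1.8.2, edgeR 2.6.2 and GRCm38 (mm10), without saying which step each served; for aligner settings, annotation and strand use, the answer is not given in the sources used here.

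Genes with at least 1 RPKM in at least 2 libraries were taken as log2(RPKM + 0.1), a scale that understates the change of low genes. All 6 libraries entered 1 limma 3.58.1 fit (R 4.3.3, eBayes with a trend, 3 residual degrees of freedom), with BH adjustment over all 12386 genes. The fit was also run on simulated data with residual spreads shuffled between genes, which differs from the real data. No result here rests on that run. Ratios were compared by an exact permutation test (Python 3.11.15). Depth was estimated from the RPKM steps of genes spanning under 1500 bases. Between 28.1% and 35.0% of the low values were whole numbers of reads to within 0.05, where chance gives 10%, so reads could not be recovered, no count model was fitted and no counting interval is given.

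The members and the 14 gene lists were chosen with earlier results of these data known. From each list at most 4 called genes per comparison were eligible to be named, those with the largest fold changes, and for each member the 3 genes of most similar pattern. Ldhb, Synm, Pvalb, Calcb and Tubb3 were named outside this rule, after their values were seen. Some listed genes count in their list and are not reported here by name.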

Additional observations from a re-analysis of the deposited data

How the results depend on the processing

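Of 240 refits of the members' fold changes with other settings, 228 kept direction and side of the threshold, 2 lost a call, 3 gained one and 7 changed sign. Many of these refits cannot move a fold change and can alter only the adjusted p. They are the other filters, robust eBayes, the fit of just the libraries compared, the replicate block, and leaving out a library outside the comparison. The count of kept directions is therefore no measure of stability. The sign changes were those of Prph in DP over C-LTMR under quantile normalization (-0.22) and of Nefh, which passed no test in any setting. Nefh in DP over DN was -0.26 after rescaling to the pan-sensory-neuron genes. Leaving out 1 library at a time, Nefh ranged from -0.11 to 0.58 in DP over C-LTMR (negative without C-LTMR replicate 2), from -0.37 to 0.43 in DP over DN (negative without DN replicate 2, and -0.08 without DP replicate 2) and from -0.61 to 0.19 in C-LTMR over DN (positive without DN replicate 1, and 0.13 without C-LTMR replicate 2). Prph in DP over DN ranged from 0.57 to 1.04 and was called without DN replicate 1. Nefl in C-LTMR over DN ranged from 0.61 to 1.21. Ina in C-LTMR over DN ranged from 0.94 to 1.34, and was 0.78 after rescaling. The causes were not tested. Genes called in DP over C-LTMR, 1828 as deposited, were 843 in the second table, which holds fewer genes, 1193 with a pseudocount of 1, and 1116 with a filter of 5 RPKM, which tests fewer. In DP over DN, 3808 as deposited, the second table gave 1645 and that filter 2214, and in C-LTMR over DN, 3637 as deposited, 1562 and 2107. With the replicate number as a block, 1878, 3828 and 3646 genes were called. This replicate block changed no call of a member but brought Nefl in DP over C-LTMR under the adjusted p threshold (limma adjusted p = 0.0225). Same-numbered libraries deviated together with r = 0.43 (DP and C-LTMR), 0.12 (DP and DN) and 0.32 (C-LTMR and DN), but 2 numbers do not establish a pairing. Of the 21 ratio differences, all but 2 kept their direction. That of Ina to Nefl in DP over C-LTMR (-0.13) turned to 0.02 when DP replicate 1 was left out and to 0.03 when C-LTMR replicate 2 was, and in DP over DN (0.11) it was -0.04 without DP replicate 2. Without DN replicate 2, an alternative added after seeing the data, 41 of 42 counts of called list genes stayed within 1.5 times, the exception being microtubule genes in DP over DN. Without DN replicate 1, added likewise, 39 did, the exceptions being microtubule and linker genes in C-LTMR over DN and node genes in DP over DN. Depth limits no member, since the lowest value was 17.1 RPKM.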

Other observations

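Nerve injury genes, which sensory neurons raise after axon damage and which can follow the cutting of axons during dissociation, differed between the subsets. All 6 listed genes were tested, with 4 called higher and 0 lower in DP over C-LTMR, 0 higher and 3 lower in DP over DN, and 0 higher and 4 lower in C-LTMR over DN. Atf3, a stress transcription factor, was at 192 and 199 RPKM in DP, 80.3 and 110 RPKM in C-LTMR, and 611 and 843 RPKM in DN, so the subsets did not overlap. Gal, the galanin precursor, had log2 fold changes of 1.98 in DP over C-LTMR and -3.98 in DP over DN (limma adjusted p = 0.000255 and 8.48e-06). The part of this in the levels of the filament genes was not tested.

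Between DP and C-LTMR, the called markers of the sorted neuron types followed the labels. Against DN, both lists had genes called higher in both GINIP+ subsets, so those calls do not tell DP from C-LTMR. Ret, a listed Mrgprd neuron marker, was lower in DP than in C-LTMR (log2 fold change -0.52, limma adjusted p = 0.0116), short of the fold criterion. Of 6 Mrgprd neuron markers, 3 were called higher in DP over C-LTMR and 6 in DP over DN, and 3 in C-LTMR over DN. Of 5 tested C-LTMR markers, 4 were called lower in DP over C-LTMR, while 5 were called higher in DP over DN and 5 in C-LTMR over DN. The pan-sensory-neuron genes, 20 in all, gave 0 higher and 3 lower in DP over C-LTMR, 2 higher and 3 lower in DP over DN, and 3 higher and 2 lower in C-LTMR over DN.

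Markers of other cells were mostly lower in both GINIP+ subsets than in DN. For satellite glia 7 of 7 were called lower in DP and 7 of 7 in C-LTMR, for Schwann cells 6 of 7 in each, and for vessels and fibroblasts 9 of 10 in each. In DP over C-LTMR these lists had 1 higher and 0 lower, 1 higher and 2 lower, and 5 higher and 1 lower. Of 6 tested immune and red blood cell genes, 4 were called higher and 1 lower in DP over C-LTMR, 2 higher and 2 lower in DP over DN, and 1 higher and 4 lower in C-LTMR over DN. S100a9, a neutrophil gene, was at 102 and 115 RPKM in DP, at 0 and 0.127 RPKM in C-LTMR, and at 13.4 and 26.3 RPKM in DN, so DP stood above both others.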
